A study of Mus musculus with 71 samples.

Results

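The genes described here encode components of the mouse egg coat, proteins that oocytes secrete beside it, and the protease that alters the coat after fertilisation. They are Zp1, Zp3, Oosp1, Oosp2, Oosp3 and Astl, and make up 6 of the 15140 genes of the table that could be used. Their rows were taken by gene symbol, but the members were chosen with earlier results of these data known. The tests and counts below are therefore not independent of that choice. Their RNA levels were followed across knockout, directly induced and wild-type oocytes made in culture and across germinal vesicle (GV) oocytes from the animal.

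The zona pellucida is a glycoprotein matrix that a growing oocyte secretes around itself, and it is assembled from filaments of ZP2 and ZP3 that ZP1 crosslinks. ZP3 is needed for any zona to form, whereas mice without ZP1 make a loose one. Sperm bind to this coat, and after fertilisation the egg releases ovastacin, the product of Astl, from its cortical granules. Ovastacin cleaves ZP2 and so ends sperm binding. Oosp1, Oosp2 and Oosp3 belong to a family of small oocyte-secreted proteins, whose members mouse oocytes make in quantity. FIGLA, a basic helix-loop-helix factor, is known to act through E-box sequences (CANNTG) in the zona gene promoters, and NOBOX, LHX8 and SOHLH1 are other transcription factors that mouse oocytes need in early follicles.

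The table gave TPM, a transcript abundance scaled for length and for the library's total, for polyA-selected and strand-specific libraries. The in vitro oocytes came from C57BL/6 X 129 embryonic stem cells with the reporters Blimp1-Venus and Stella-CFP. From these, primordial germ cell-like cells were induced and joined with somatic cells of E12.5 female gonads, and SC+ oocytes (the term of the labels) were sorted on day 11 or day 13 of in vitro differentiation. Knockouts of Figla, Lhx8, Stat3 and Sub1 were taken on day 11, and knockouts of Nobox, Sohlh1, Tbpl2, Dynll1, Ybx3, Ccnk, Kdm1b, Thap7, Noto, Foxr1, Mef2b, Sfr1, Hes6, Ell3 and Tcf25 on day 13, each beside wild-type oocytes of the same day. These 19 knockouts and 2 wild-type groups share the same reporters and held 2 libraries each. The labels give neither the kind of mutation nor the number of clones, nor whether the somatic cells carried it.

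Directly induced oocyte-like cells (DIOLs) came from a C57BL/6 X 129 stem cell line given as MGA8, cultured with 0.5 µM Shield1, a ligand that stabilises proteins fused to a destabilising domain. The introduced genes are not named in the labels, so an introduced copy of a factor cannot be told apart from the cell's own. The groups were DIOLs.S of days 1, 3, 5, 7 and 14, DIOLs of days 5, 10, 15 and 25, and MII DIOLs, with 2 libraries each. The labels do not say what the S denotes. MII DIOLs were aggregated with E12.5 gonadal somatic cells, grown as isolated follicles and matured in culture, so they differ from the other DIOLs in culture as well as in stage. GV oocytes carrying Blimp1-Venus and Stella-CFP, competent (columns marked 3w) or incompetent (columns marked 2w), had 3 libraries each.

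In all, 68 libraries in 33 groups were used. Their depth is unknown, since TPM hold no read totals. In a library, the genes used summed to 0.521 to 0.708 of the full TPM total, so the table is partial. Among the genes that could not be read were Zp2, Figla and Nobox. Shares of all genes below are shares of the genes tested, and percentages of TPM are of the full total. Between 8011 and 10596 genes reached 1 TPM in a library. Replicates correlated across genes at r of 0.967 or more on log2(TPM + 1), apart from the Sohlh1 knockout at 0.873. Of the 19 targeted genes, 12 could be read, and in 11 of them every knockout library lay below wild type of the same day. These 11 ran from 0.285% of wild type (Sohlh1) to 71.1% (Sub1), with Thap7 at 59.2% and Sfr1 at 53.0%. With 2 libraries a side this order is a description, and the share of all genes lying so was not counted. The exception among the 12 was Ccnk, at 101% of wild type, and its libraries are therefore called the libraries labelled Ccnk knockout. The 7 oocyte markers that could be read summed to 38191 to 39395 TPM in wild-type oocytes of day 13 and 6514 to 6563 TPM on day 11, and none was at 0 there. Whether a group's libraries came from separate cultures or animals is not in the labels, so a p-value here speaks of the spread among the libraries, which may be technical. In such bulk libraries, fewer oocytes and less RNA per oocyte cannot be told apart.

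Positions are those of GENCODE M21 on GRCm38, and all 6 genes are annotated as protein coding. Zp1 lies on the minus strand of chromosome 19 from 10914287 to 10920632 with 12 exons, and Zp3 on the plus strand of chromosome 5 from 135980099 to 135988624 with 8 exons. Astl lies on the plus strand of chromosome 2 from 127338639 to 127357651 with 9 exons. The Oosp genes are neighbours on chromosome 19. Oosp2 runs from 11647279 to 11660559 with 4 exons and Oosp1 from 11667460 to 11691150 with 5 exons, both on the minus strand, and Oosp3 runs from 11697055 to 11711874 with 6 exons on the plus strand. Oosp1 and Oosp3 point away from each other, with 5904 bases between their starts. The whole cluster covers 64.6 kb, with Ms4a genes on the Oosp2 side and Gif, Mrpl16 and Stx3 on the Oosp3 side. Of these 7 neighbours within 100 kb, Mrpl16, a mitochondrial ribosomal protein gene, had the highest group mean (185 TPM), against 9108 TPM for Oosp1.

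Promoter sequences were available for 4 of the 6 members, Zp3, Oosp1, Oosp2 and Astl, and are shown for their E-boxes, which FIGLA is known to bind. These 4 genes were lower in the Figla knockout, but also in those of Lhx8, Stat3, Sub1, Nobox, Sohlh1, Dynll1 and Tbpl2. A part of the E-boxes in this was not tested. Each sequence is the 250 bases before the RefSeq start on GRCm38.p6, 5′ to 3′ on the strand of the gene, with every E-box (CANNTG) in capitals. The Zp3 window is chr5:135979855-135980104 on the plus strand, Oosp1 chr19:11691052-11691301 and Oosp2 chr19:11660560-11660809 on the minus strand, and Astl chr2:127341386-127341635 on the plus strand.
Zp3: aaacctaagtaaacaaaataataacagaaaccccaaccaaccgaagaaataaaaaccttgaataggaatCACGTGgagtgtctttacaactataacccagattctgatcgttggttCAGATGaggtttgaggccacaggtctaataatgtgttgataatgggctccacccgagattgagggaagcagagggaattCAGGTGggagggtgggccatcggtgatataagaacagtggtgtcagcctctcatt
Oosp1: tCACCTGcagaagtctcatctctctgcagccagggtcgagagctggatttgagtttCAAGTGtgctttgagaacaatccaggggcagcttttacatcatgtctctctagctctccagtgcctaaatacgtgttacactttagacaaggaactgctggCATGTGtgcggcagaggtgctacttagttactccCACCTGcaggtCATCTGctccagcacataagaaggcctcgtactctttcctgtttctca
Oosp2: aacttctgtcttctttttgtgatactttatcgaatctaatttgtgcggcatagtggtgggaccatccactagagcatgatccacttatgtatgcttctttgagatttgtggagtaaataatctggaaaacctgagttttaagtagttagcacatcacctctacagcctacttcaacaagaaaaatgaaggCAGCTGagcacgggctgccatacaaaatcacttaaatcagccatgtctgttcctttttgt
Astl: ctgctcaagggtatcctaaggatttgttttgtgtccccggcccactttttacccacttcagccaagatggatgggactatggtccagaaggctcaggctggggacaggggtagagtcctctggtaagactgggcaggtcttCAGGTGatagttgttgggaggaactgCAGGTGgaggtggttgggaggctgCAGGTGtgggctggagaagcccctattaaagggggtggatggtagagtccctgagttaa
The Zp3 window held 3 E-boxes, whose first bases lay at -181, -134 and -55 relative to the start. The Oosp1 window held 5, at -249, -194, -93, -59 and -48, of which the ones at -249 and -59 read CAGGTG on the opposite strand. The Oosp2 window held 1, at -60. The Astl window held 3, at -109, -83 and -59, all of them CAGGTG. A second Astl start, farther upstream, had no E-box in its window of chr2:127338389-127338638. That window ends directly before the GENCODE start of Astl at 127338639, whereas the Astl window shown above lies inside the annotated gene. Which start these oocytes use was not tested, so the 3 E-boxes may not belong to the start in use. Of 32851 RefSeq promoter windows of this length, 66.2% held at least 1 CANNTG and 3.84% held 4 or more, while CAGGTG on either strand was in 17.2%. Motifs of homeodomain factors (TAATTG in 7.17% and TAATTA in 4.84% of all windows), of STAT factors (TTCNNNGAA in 7.02%) and the TATA box (TATAAA in 12.4%) were searched on both strands and are not among these letters in any window of the 4 genes. A match is a description of the sequence and not a measured binding site.

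Zp3 had the highest mean TPM of the 6 members in 30 of 33 groups. In the Figla and Nobox knockouts Zp1 was the highest, and in MII DIOLs Oosp1. Its mean level ran over 33 groups from 1.51 TPM in the Figla knockout to 27026 TPM in DIOLs.S of day 14, and Zp1 ran from 2.70 TPM in the Lhx8 knockout to 7431 TPM in DIOLs.S of day 14. Astl was also highest in DIOLs.S of day 14 (2664 ± 105 TPM, SD, n = 2), followed by incompetent GV oocytes (2111 ± 160 TPM, n = 3). Oosp1 and Oosp3 had another order, with MII DIOLs on top at 9108 ± 127 and 3313 ± 76.0 TPM (n = 2), then competent GV oocytes at 3206 ± 19.1 and 1197 ± 19.5 TPM (n = 3), then incompetent ones at 2921 ± 523 and 882 ± 80.2 TPM (n = 3). Oosp2 was highest in competent GV oocytes (1251 ± 31.4 TPM, n = 3), whose libraries overlapped those of incompetent ones (1155 ± 101 TPM, n = 3). Among the 32 neighbouring pairs in each order, the libraries overlapped in 5 pairs for Zp3, 9 for Astl, 11 for Zp1, 16 for Oosp1, 22 for Oosp2 and 23 for Oosp3. Pairs of groups both listed at 0 count as overlapping, which occurred for Oosp1, Oosp2 and above all Oosp3. These counts thus partly reflect low levels, and the share over all genes was not counted. The 5 overlapping Zp3 pairs were DIOLs of day 15 with wild type of day 13, the libraries labelled Ccnk knockout with DIOLs of day 10, these DIOLs with incompetent GV oocytes, incompetent GV oocytes with the Ybx3 knockout, and competent GV oocytes with DIOLs.S of day 7.

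Between day 11 and day 13 all 6 members rose in wild-type oocytes. Here and below, "rose" and "fell" mean a limma Benjamini-Hochberg adjusted p under 0.05 over all genes tested with a log2 change of at least 1 on log2(TPM + 1). Of all genes tested in this comparison, 5.5% rose. Over all genes, 677 rose and 2030 fell, or 1154 and 1360 after rescaling by medians of ratios, whose shift between the days was -0.40 on the log2 scale. Zp3 read 16423 and 16226 TPM on day 13, against 1943 and 1843 TPM on day 11, a log2 change of 3.11 ± 0.11 (SE, adjusted p = 2.45e-17). Zp1 read 4179.6 and 4077 TPM on day 13, against 684 and 655 TPM on day 11 (2.62 ± 0.43, adjusted p = 2.02e-05). The levels of both days stood far apart for both zona genes, with close replicates.
Oosp1 read 645 and 694 TPM on day 13, against 34.9 and 24.3 TPM on day 11 (log2 change 4.48 ± 0.54, limma adjusted p = 2.48e-07). This was the largest change of the 6 on log2(TPM + 1), a scale that understates changes of genes near 0, such as Oosp3 on day 11. Oosp2 read 493 and 483 TPM on day 13, against 26.1 and 111 TPM on day 11 (3.15 ± 0.75, adjusted p = 0.00136). Its day 11 libraries differed from each other, and the call ended without replicate 1 of that day (limma adjusted p = 0.0554) and with a pseudocount of 0.1 (adjusted p = 0.0902). Oosp3 read 24.1 and 42.8 TPM on day 13, against 0 and 5.14 TPM on day 11 (3.74 ± 0.58, adjusted p = 9.24e-06), and Astl 1527 and 1487 TPM on day 13, against 237 and 234 TPM on day 11 (2.67 ± 0.31, adjusted p = 1.04e-07). Summed, the members made up 2.30 to 2.33% of all TPM on day 13, against 0.287 to 0.292% on day 11. The summed level of 10 granulosa markers was 35 to 38 TPM on day 13 and 1153 to 1238 TPM on day 11, with none of them at 0 in all libraries of a day, and its part in the change was not tested.

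**Figure D1:**
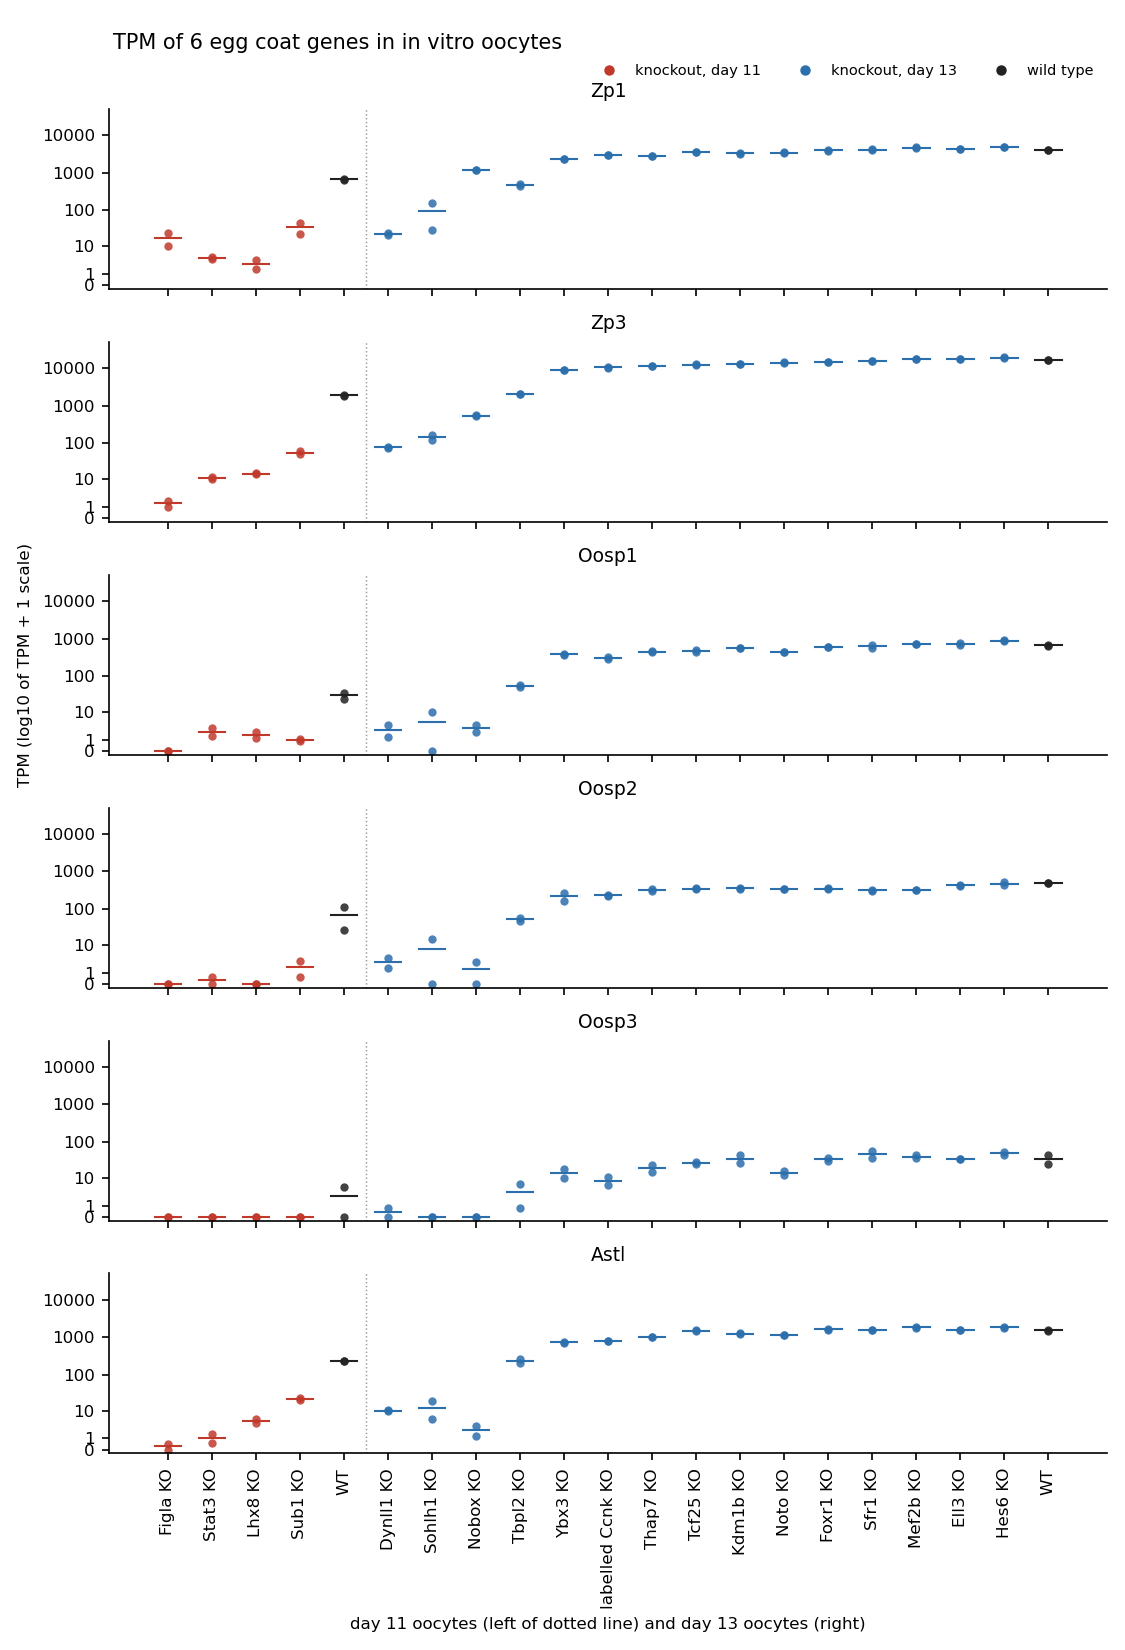
TPM of the 6 members in each in vitro oocyte library (points) with the group mean (lines), drawn on a log10 scale of TPM + 1, for day 11 and day 13 knockouts and wild type. Within each day knockouts are ordered by mean Zp3. Zp3 is between 1.05 and 59.5 TPM in the day 11 knockouts and 1943 and 1843 TPM in wild type of day 11, and 4 knockouts stand below the rest on day 13.

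The Figla, Lhx8, Stat3 and Sub1 knockouts of day 11 were each set against the same wild-type libraries, and in each of them 5 of 6 members fell. The share of all genes tested that fell was 9.52% in the Figla, 9.47% in the Lhx8, 11.5% in the Stat3 and 9.26% in the Sub1 knockout. The sixth, Oosp3, was listed at 0 in all 8 knockout libraries, against 0 and 5.14 TPM in wild type, and did not pass. The members' median log2 change was -5.54 in the Figla, -5.56 in the Lhx8, -6.20 in the Stat3 and -4.12 in the Sub1 knockout, while the median over all genes tested was between 0.02 and 0.20.
Zp3 read 1.05 and 1.97 TPM in the Figla knockout, 15.1 and 14.1 TPM in the Lhx8 knockout, 9.95 and 11.7 TPM in the Stat3 knockout and 51.3 and 59.5 TPM in the Sub1 knockout, against 1943 and 1843 TPM in wild type of day 11. All knockout libraries lay far below wild type, with the Figla knockout lowest. The log2 change of Zp3 was -9.58 ± 0.11 (SE, limma adjusted p = 8.62e-29) in the Figla, -6.92 ± 0.11 (adjusted p = 3.18e-25) in the Lhx8, -7.33 ± 0.11 (adjusted p = 7.61e-26) in the Stat3 and -5.07 ± 0.11 (adjusted p = 8.01e-22) in the Sub1 knockout. Zp1 read 10.4 and 24.6 TPM in the Figla knockout, 1.69 and 3.70 TPM in the Lhx8 knockout, 4.05 and 4.62 TPM in the Stat3 knockout and 46.3 and 22.9 TPM in the Sub1 knockout, against 684 and 655 TPM in wild type. Here the Lhx8 knockout was lowest. The log2 change of Zp1 was -5.30 ± 0.43 (adjusted p = 1.74e-10) in the Figla, -7.56 ± 0.43 (adjusted p = 1.5e-13) in the Lhx8, -6.98 ± 0.43 (adjusted p = 5.44e-13) in the Stat3 and -4.32 ± 0.43 (adjusted p = 9.04e-09) in the Sub1 knockout.

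Astl, the ovastacin gene, read 0 and 0.45 TPM in the Figla knockout, 4.19 and 5.52 TPM in the Lhx8 knockout, 1.60 and 0.48 TPM in the Stat3 knockout and 22.5 and 20.2 TPM in the Sub1 knockout, against 237 and 234 TPM in wild type of day 11. All knockout libraries were below both wild-type libraries, and the Figla knockout was again lowest. Its log2 changes ran from -7.62 ± 0.31 in the Figla knockout (limma adjusted p = 1.38e-16) to -3.40 ± 0.31 in the Sub1 knockout (adjusted p = 1.49e-09). Oosp1 and Oosp2 were listed at 0 in both Figla knockout libraries, and Oosp2 also in both Lhx8 knockout libraries, against 34.9 and 24.3 TPM of Oosp1 and 26.1 and 111 TPM of Oosp2 in wild type. In the other day 11 knockouts Oosp1 ran from 0.81 to 3.13 TPM and Oosp2 from 0 to 3.16 TPM. Oosp3 passed in all 4 knockouts with a pseudocount of 0.1 (adjusted p between 0.0351 and 0.0403), with 1 fit over all libraries (adjusted p between 0.0153 and 0.018) and without replicate 1 of the wild type, the library at 0.

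Other cells' markers also moved with some of these knockouts. The 10 macrophage and blood markers summed to 452 to 466 TPM in the Figla, 396 to 420.2 TPM in the Lhx8, 43.3 to 51.1 TPM in the Stat3 and 3015 to 3089 TPM in the Sub1 knockout, against 28.0 to 45.2 TPM in wild type of day 11, where C1qa, C1qc, Ctss, Csf1r, Hba-a1 and Ptprc were at 0. The 10 granulosa markers summed to 855 to 1720.2 TPM over the 4 knockouts and to 1153 to 1238 TPM in wild type. The 7 oocyte markers summed to 1427 to 1429 TPM in the Figla knockout, where Zar1 was at 0, to 1616 to 1629 TPM in the Lhx8, 2334 to 2442 TPM in the Stat3 and 2203 to 2225 TPM in the Sub1 knockout, against 6514 to 6563 TPM in wild type. Padi6, which is also on the list of genes for cortical granule release, made up 64.1% of this sum in wild type and 1.23 to 8.89% in the knockouts. The means of the other 6 oocyte markers summed to 1395 TPM in the Figla, 1591 TPM in the Lhx8, 2358 TPM in the Stat3 and 2017 TPM in the Sub1 knockout, against 2347 TPM in wild type. Among these, Gdf9, Npm2, Zar1 and Kit fell in all 4 knockouts, whereas the germ cell genes Dazl and Ddx4 had higher means in the knockouts (each called in 3 of the 4), Dazl at 843, 1095, 1675 and 1285 TPM, against 425 TPM in wild type, and Ddx4 at 458, 362, 523 and 423 TPM, against 209.6 TPM in wild type. The part of other cells in the members' changes was not tested. Rescaling changed no call of a member here. It moved the split of all genes in the Figla knockout from 2285 higher and 1172 lower to 1602 and 1479.

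**Figure D2:**
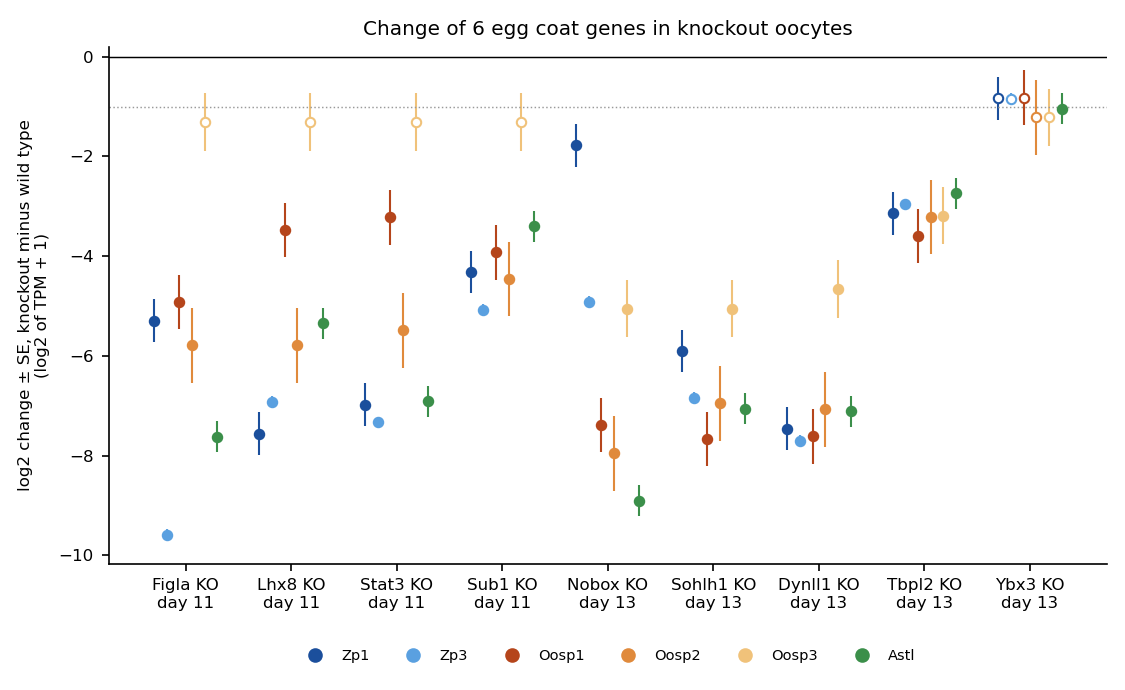
Log2 change of each member from wild type of the same day on log2(TPM + 1), with its SE, in the 4 day 11 knockouts and in 5 day 13 knockouts. Filled symbols passed the test, open ones did not, and the dotted line is a change of -1. Zp1 in the Nobox knockout stands apart at -1.78, against -4.91 to -8.91 for the other members.

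On day 13 all 6 members fell in 4 of the 15 knockouts, those of Nobox, Sohlh1, Dynll1 and Tbpl2, which were set against the same wild-type libraries. The share of all genes tested that fell was 8.5% in the Nobox, 13.4% in the Sohlh1, 10.4% in the Dynll1 and 6.35% in the Tbpl2 knockout. The members' median log2 change was -6.22 in the Nobox, -6.90 in the Sohlh1, -7.28 in the Dynll1 and -3.16 in the Tbpl2 knockout, where the medians over all genes were 0.52, 0.08, 0.69 and 0.36. DYNLL1 is a light chain of cytoplasmic dynein with many other partners, and TBPL2 takes the place of the TATA-binding protein in growing mouse oocytes.

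In the Nobox knockout the 2 zona genes parted. Zp3 read 532 and 551 TPM in the Nobox knockout, against 16423 and 16226 TPM in wild type of day 13 (log2 change -4.91 ± 0.11, limma adjusted p = 4.53e-22). Zp1 read 1189 and 1218 TPM in the Nobox knockout, against 4179.6 and 4077 TPM in wild type (-1.78 ± 0.43, adjusted p = 0.000932). The Zp1 libraries thus kept apart from wild type, but by less than those of any other member.
Astl read 3.26 and 1.32 TPM in the Nobox knockout, against 1527 and 1487 TPM in wild type (-8.91 ± 0.31, adjusted p = 2.74e-18). Oosp1 read 3.91 and 2.26 TPM in the Nobox knockout, against 645 and 694 TPM in wild type (-7.39 ± 0.54, adjusted p = 1.25e-11), and Oosp2 read 2.90 and 0 TPM, against 493 and 483 TPM in wild type (-7.95 ± 0.75, adjusted p = 1.61e-09). Oosp3 was listed at 0 in both Nobox knockout libraries, against 24.1 and 42.8 TPM in wild type. So the ovastacin and Oosp genes were within a few TPM of 0 while both zona genes stayed above 532 TPM.

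In the Sohlh1 knockout Zp3 read 122 and 164 TPM, against 16423 and 16226 TPM in wild type (-6.84 ± 0.11, limma adjusted p = 2.17e-25). Zp1 read 159.8 and 28.6 TPM in the Sohlh1 knockout, against 4179.6 and 4077 TPM in wild type (-5.90 ± 0.43, adjusted p = 1.36e-11). Its 2 libraries disagreed with each other for several members, with Oosp1 at 0 and 9.93 TPM and Oosp2 at 14.6 and 0 TPM, and Oosp3 was listed at 0 in both. Astl read 18.9 and 5.41 TPM, against 1527 and 1487 TPM in wild type (-7.06 ± 0.31, adjusted p = 3.61e-16). The same 2 libraries also differed in macrophage and blood markers (117 and 3625 TPM) and in stromal and endothelial markers (203 and 1878 TPM), against 68.9 to 86.0 and 10.8 to 16.9 TPM in wild type, and the part of these cells was not tested. All 6 members passed with either Sohlh1 library alone, Zp1 at -7.12 with replicate 2 and -4.68 with replicate 1, and Oosp2 at -8.93 with replicate 2 and -4.97 with replicate 1.

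In the Dynll1 knockout 5 of the 6 members changed by -7.07 to -7.71 and Oosp3 by -4.66. Zp3 read 74.0 and 80.4 TPM in the Dynll1 knockout, against 16423 and 16226 TPM in wild type (-7.71 ± 0.11, limma adjusted p = 2.14e-26), and Zp1 24.6 and 20.6 TPM, against 4179.6 and 4077 TPM in wild type (-7.46 ± 0.43, adjusted p = 8.4e-14). Astl read 10.2 and 9.63 TPM in the Dynll1 knockout, against 1527 and 1487 TPM in wild type (-7.11 ± 0.31, adjusted p = 1.98e-16). Oosp1 and Oosp2 changed by -7.62 ± 0.54 and -7.07 ± 0.75, and Oosp3, at 0.72 and 0 TPM, by -4.66 ± 0.58. On this scale, with its pseudocount of 1 TPM, a gene that is low in wild type cannot change by as much as one that is high, so the values of low genes understate their change.

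The Tbpl2 knockout had the smallest median change of the 4, though Zp1 changed by less in the Nobox knockout. Zp3 read 2108 and 2088 TPM in the Tbpl2 knockout, against 16423 and 16226 TPM in wild type of day 13 (-2.96 ± 0.11, limma adjusted p = 8.48e-17). Zp1 read 498 and 439 TPM in the Tbpl2 knockout, against 4179.6 and 4077 TPM in wild type (-3.14 ± 0.43, adjusted p = 1.12e-06), and Astl 255 and 199 TPM, against 1527 and 1487 TPM in wild type (-2.74 ± 0.31, adjusted p = 4.83e-08). These levels were near those of wild type of day 11.
Oosp1, Oosp2 and Oosp3 changed by -3.60 ± 0.54, -3.21 ± 0.75 and -3.19 ± 0.58 in the Tbpl2 knockout. Oosp2 (adjusted p = 0.000897) did not pass with a pseudocount of 0.1 (adjusted p = 0.0753). Set against wild type of day 11, the Tbpl2 knockout of day 13 had 0 of 6 members past the test by limma and 0 with an unadjusted p under 0.05, while 9.56% of all genes were called there. The differences were 0.15 ± 0.11 for Zp3, -0.52 ± 0.43 for Zp1, 0.87 ± 0.54 for Oosp1, -0.06 ± 0.75 for Oosp2, 0.55 ± 0.58 for Oosp3 and -0.07 ± 0.31 for Astl, so that for the Oosp genes a difference of more than 1 is within the error, and Oosp3 passed without wild-type replicate 2 of day 11 (1.86, adjusted p = 0.0214).

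The 7 oocyte markers summed to 1584 to 1624 TPM in the Nobox, 1465 to 2142 TPM in the Sohlh1, 2312 to 2334 TPM in the Dynll1 and 9322 to 9418 TPM in the Tbpl2 knockout, against 38191 to 39395 TPM in wild type. In the same order of knockouts, Padi6 made up 18.2, 47.5, 5.78 and 69.7% of these sums, against 74.5% in wild type, and without it the means summed to 1311, 947, 2189 and 2840.2 TPM, against 9886 TPM in wild type. Gdf9, Npm2 and Zar1 fell in all 4 and Kit in all but the Tbpl2 knockout. Dazl rose in all 4, with means of 818, 607, 1348 and 769.8 TPM, against 280 TPM in wild type, and Ddx4 was not called, with means of 260.2, 241, 613 and 341 TPM, against 397 TPM in wild type. The 10 granulosa markers summed to 756 to 783 TPM in the Nobox, 166 to 337 TPM in the Sohlh1, 374 to 394 TPM in the Dynll1 and 951 to 1026 TPM in the Tbpl2 knockout, against 34.8 to 38.2 TPM in wild type, and their part was not tested. Rescaling by medians of ratios shifted all genes by 0.53, 0.33, 0.59 and 0.40 on the log2 scale in these 4 knockouts and ended no call. Over all genes it turned 3692 higher and 1046 lower into 2274 and 1695 in the Nobox, 2747 and 1643 into 2127 and 2189 in the Sohlh1, 4642 and 1284 into 3013 and 2149 in the Dynll1, and 2809 and 782 into 1911 and 1401 in the Tbpl2 knockout.

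Of the other 11 day 13 knockouts, 2 had 1 member past the test and 9 had none. In the knockout of Ybx3, the gene for a Y-box RNA-binding protein, Astl read 765 and 697 TPM, against 1527 and 1487 TPM in wild type (-1.04 ± 0.31, limma adjusted p = 0.00985), where 2.21% of all genes fell. This call ended without Ybx3 knockout replicate 2 (adjusted p = 0.0616), without wild-type replicate 1 of day 13 (adjusted p = 0.0537) and with a pseudocount of 0.1 (adjusted p = 0.159). Zp3 read 9097 and 9133 TPM in the Ybx3 knockout (-0.84 ± 0.11, adjusted p = 1.36e-06) and did not reach a change of 1. After rescaling, which shifted all genes by 0.31 and turned 1927 higher and 272 lower genes into 1493 and 664, 4 members passed, Zp1 and Zp3 both at -1.18, Oosp3 at -1.55 and Astl at -1.39. The granulosa markers summed to 1424 to 1443 TPM in the Ybx3 knockout, against 34.8 to 38.2 TPM in wild type.
In the libraries labelled Ccnk knockout, Oosp3 read 10.4 and 6.21 TPM, against 24.1 and 42.8 TPM in wild type (-1.87 ± 0.58, adjusted p = 0.0247), where 0.91% of all genes fell. With a pseudocount of 0.1 (adjusted p = 0.231) it was lost, as it was without either of these libraries or wild-type replicate 2 of day 13. Zp3 read 10727 and 10387 TPM in these libraries (-0.63 ± 0.11, adjusted p = 0.000243), also short of a change of 1. Rescaling gave 2 members past the test in place of 1, and turned 643 higher and 112 lower genes into 379 and 236.

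In the knockouts of Kdm1b, Thap7, Noto, Foxr1, Mef2b, Sfr1, Hes6, Ell3 and Tcf25, limma called 0 of 54 member tests, of which 3 had an unadjusted p under 0.05 and 1 an adjusted p under it, Zp3 in the Thap7 knockout (-0.48 ± 0.11, adjusted p = 0.00879). The share of all genes called in either direction was 3.19% in the Kdm1b, 2.74% in the Thap7, 2.23% in the Noto, 1.88% in the Foxr1, 1.24% in the Sfr1, 1.08% in the Mef2b, 0.593% in the Hes6, 0.504% in the Tcf25 and 0.114% in the Ell3 knockout. The Tcf25 knockout had 45 genes higher and 17 lower, or 32 and 36 after rescaling. Log2 changes ran from -0.54 to 0.23 for Zp1, from -0.48 to 0.22 for Zp3, from -0.60 to 0.28 for Astl, from -0.64 to 0.39 for Oosp1, from -0.65 to -0.07 for Oosp2 and from -1.18 to 0.56 for Oosp3. With 2 libraries a group, a change under 1 was not called whatever its p, so these values do not show that the knockouts act alike.

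Direct comparison of the knockouts with each other tested where the members parted. The Figla knockout had more Zp1 than the Lhx8 knockout (10.4 and 24.6 TPM, against 1.69 and 3.70 TPM in the Lhx8 knockout), a log2 difference of 2.26 ± 0.43 (limma adjusted p = 0.000233), and less Zp3 (1.05 and 1.97 TPM, against 15.1 and 14.1 TPM in the Lhx8 knockout), a difference of -2.66 ± 0.11 (adjusted p = 1.81e-15). Astl was also lower in the Figla than in the Lhx8 knockout (-2.27 ± 0.31, adjusted p = 3.02e-06). The call for Oosp1 (-1.45 ± 0.54, adjusted p = 0.0491) ended without any one of the 4 libraries, without the filter on low values and after rescaling, which turned 986 higher and 474 lower genes into 624 and 607. Between these 2 knockouts 11.9% of all genes were called.
Set against the Stat3 knockout, the Figla knockout again had more Zp1 (1.68 ± 0.43, adjusted p = 0.00326) and less Zp3 (-2.26 ± 0.11, adjusted p = 3.54e-14), where 16.3% of all genes were called. The Zp1 call ended without Figla knockout replicate 2 (1.09, adjusted p = 0.107). Oosp1 was called lower in the Figla than in the Stat3 knockout (-1.69 ± 0.54, adjusted p = 0.0176), a call that ended without either Figla library or Stat3 replicate 2, while Astl was called with a pseudocount of 0.1 (-2.08, adjusted p = 0.00507) and without Stat3 replicate 2 (-1.11, adjusted p = 0.0241) only. Set against the Sub1 knockout, Zp3 and Astl were lower in the Figla knockout (-4.51 ± 0.11, adjusted p = 7.62e-21, and -4.21 ± 0.31, adjusted p = 1.08e-10), while Zp1 was not called (-0.98 ± 0.43, adjusted p = 0.0858) but passed without Figla or Sub1 replicate 2 (-1.56 and -1.47) and after rescaling (-1.10). There 6.27% of all genes were lower, with 1171 higher and 771 lower, or 847 and 855 after rescaling.

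The Nobox knockout was set against the other day 13 knockouts in the same way. Against the Tbpl2 knockout it had more Zp1 (1189 and 1218 TPM, against 498 and 439 TPM in the Tbpl2 knockout; 1.36 ± 0.43, limma adjusted p = 0.0159) and less Zp3 (532 and 551 TPM, against 2108 and 2088 TPM in the Tbpl2 knockout; -1.95 ± 0.11, adjusted p = 3.37e-13), where 17.1% of all genes were called. The Zp1 call ended without Nobox replicate 1 (adjusted p = 0.0617), Nobox replicate 2 (adjusted p = 0.0706) or Tbpl2 replicate 2 (adjusted p = 0.0879), and without the Sohlh1 knockout libraries, which widen the shared error of Zp1, its adjusted p was 7.55e-05. Astl and the Oosp genes were lower in the Nobox than in the Tbpl2 knockout, Astl by -6.17 ± 0.31 (adjusted p = 2.49e-14), Oosp1 by -3.79 ± 0.54, Oosp2 by -4.74 ± 0.75 and Oosp3 by -1.86 ± 0.58, the last of which ended without either Nobox library or Tbpl2 replicate 2.
The Sohlh1 knockout had less Zp1 (-4.12 ± 0.43, adjusted p = 1.6e-08) and Zp3 (-1.93 ± 0.11, adjusted p = 2.09e-13) than the Nobox knockout, but more Astl (1.85 ± 0.31, adjusted p = 1.91e-05), where 30% of all genes were called. Oosp1 passed in opposite directions with single Sohlh1 libraries, at -2.00 with replicate 1 alone (adjusted p = 3.93e-06) and 1.45 with replicate 2 alone (adjusted p = 0.000168). Oosp2 passed with replicate 1 alone (2.98, adjusted p = 0.000169) and was not called with replicate 2 alone (-0.98, adjusted p = 0.17). The Dynll1 knockout likewise had less Zp1 (-5.68 ± 0.43, adjusted p = 8.08e-11) and Zp3 (-2.80 ± 0.11, adjusted p = 2.14e-16) and more Astl (1.79 ± 0.31, adjusted p = 4.01e-05) than the Nobox knockout, where 21.2% were called. So Nobox knockout oocytes had the highest Zp1 of the 4 and the lowest Astl. Set against wild type of day 11, the Nobox knockout had less Zp3 (-1.80 ± 0.11, adjusted p = 1.32e-12), Oosp1 (-2.91 ± 0.54, adjusted p = 0.000134), Oosp2 (-4.80 ± 0.75, adjusted p = 1.42e-05) and Astl (-6.23 ± 0.31, adjusted p = 1.52e-14), and its Zp1, at 0.84 ± 0.43 (adjusted p = 0.134), was not called. There 6.52% of all genes were lower. Oosp3, at 0 in both Nobox knockout libraries, was not called but passed with a pseudocount of 0.1 (adjusted p = 0.0468), with 1 fit over all libraries (adjusted p = 0.0205) and without wild-type replicate 1 of day 11.

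**Figure D3:**
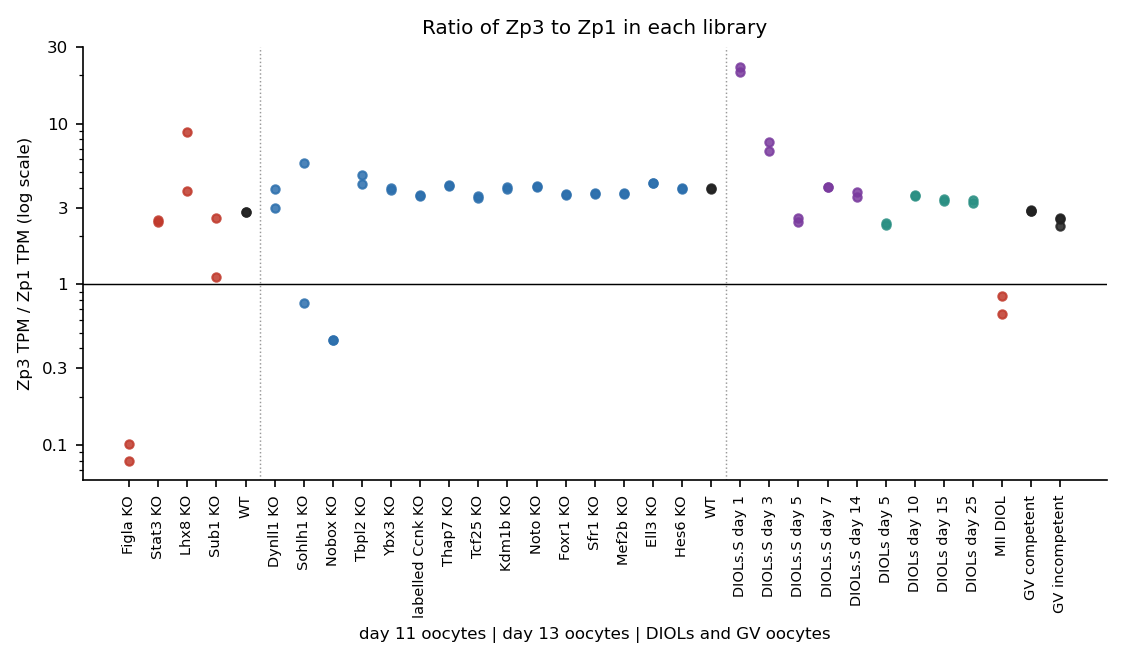
Ratio of Zp3 to Zp1 TPM in each library (points) on a log axis, for every group. It lies between 2.81 and 4.76 in wild type and the 12 knockouts outside the 7 with the lowest Zp3, and below 1 in both libraries of the Figla and Nobox knockouts and of MII DIOLs.

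The ratio of Zp3 to Zp1 is formed within a library, so that the scaling of the library does not enter it. It was 3.93 and 3.98 in wild type of day 13 and 2.84 and 2.81 in wild type of day 11. Over the 28 libraries of wild type and the 12 knockouts outside the 7 with the lowest Zp3, it ran from 2.81 to 4.76 with a median of 3.90. This set was chosen by Zp3, which enters the ratio, so its range is not an independent reference. In the Nobox knockout the ratio was 0.448 and 0.453 and in the Figla knockout 0.101 and 0.080, so Zp1 exceeded Zp3 in all 4 libraries. The Dynll1 knockout, with both genes far below wild type, had ratios of 3.01 and 3.90, and the Tbpl2 knockout 4.23 and 4.76. The other day 11 knockouts gave 8.92 and 3.81 (Lhx8), 2.46 and 2.53 (Stat3) and 1.11 and 2.60 (Sub1), so they lay on both sides of wild type of that day. The Sohlh1 knockout libraries gave 0.766 and 5.72 and so do not place that knockout. In DIOLs.S the ratio was 22.6 and 21.0 on day 1, 7.67 and 6.72 on day 3, and 2.61 and 2.46 on day 5.

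**Figure D4:**
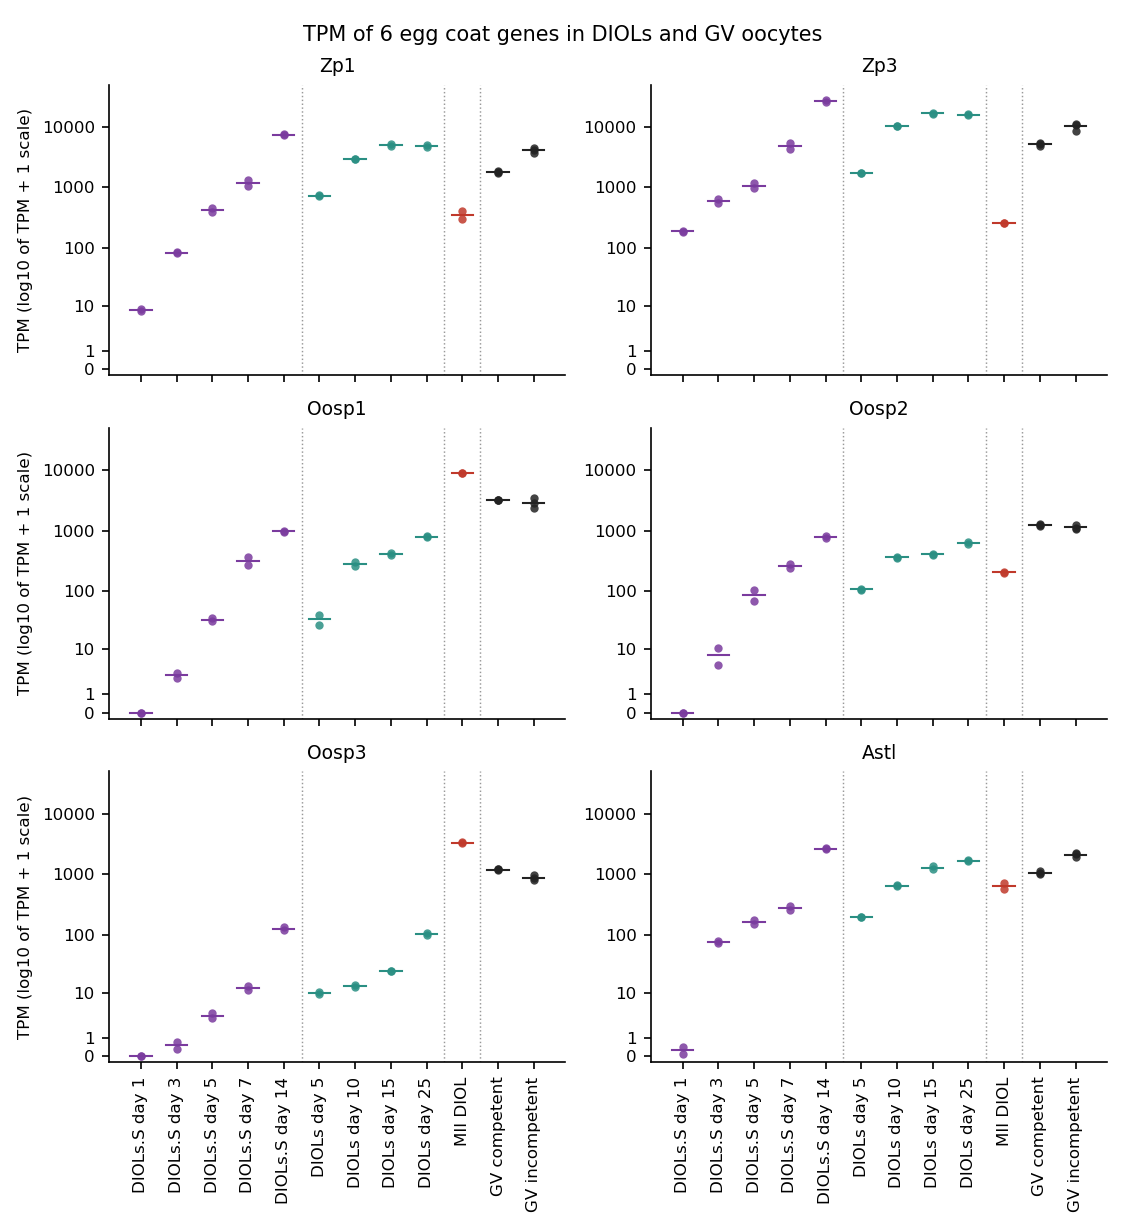
TPM of the 6 members in each DIOL, MII DIOL and GV library (points) with the group mean (lines), on a log10 scale of TPM + 1. Zp1, Zp3 and Astl are highest in DIOLs.S of day 14 and Oosp1 and Oosp3 in MII DIOLs, where Zp3 is 254 to 262 TPM.

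In DIOLs.S the members rose at different times between days 1 and 14. On day 1 Zp3 was at 184 and 189 TPM, Zp1 at 8.15 and 9.00 TPM and Astl at 0.41 and 0.08 TPM, and the 3 Oosp genes were listed at 0 in both libraries. By day 3 all but Oosp3 had risen, where 11.9% of all genes rose. Astl read 79.5 and 73.1 TPM on day 3, against 0.41 and 0.08 TPM on day 1, a log2 change of 5.97 ± 0.12 (limma adjusted p = 1.05e-17) and the largest of the 6. Zp1 changed by 3.13 ± 0.12 and Zp3 by 1.67 ± 0.12. Oosp1 reached 3.58 and 2.75 TPM, Oosp2 10.7 and 5.21 TPM and Oosp3 0.30 and 0.69 TPM, the last not called (adjusted p = 0.000501 with a log2 change of 0.57 ± 0.12), though it passed with a pseudocount of 0.1 (2.49, adjusted p = 4.94e-09). The 10 macrophage and blood markers summed to 48.4 to 53.2 TPM on day 3, against 436 to 448 TPM on day 1, and the granulosa markers to 406 to 459 TPM on day 3, against 129 to 250.5 TPM on day 1. Of the former, C1qa, C1qc, Lyz2 and Ptprc were at 0 in both day 3 libraries. The labels name no gonadal somatic cells for DIOLs.S, and whether other cells were present was not tested. Over all genes 1382 rose and 1044 fell, or 937 and 1285 after rescaling.
From day 3 to day 5, where 3.81% of all genes rose, all but Zp3 rose, Oosp2 by 3.32 ± 0.19, Oosp1 by 3.04 ± 0.17, Zp1 by 2.33 ± 0.12, Oosp3 by 1.65 ± 0.12 and Astl by 1.09 ± 0.12 on the log2 scale (0.99 without DIOLs.S replicate 1 of day 5). From day 5 to day 7, where 2.96% rose, all but Astl rose, with Oosp1 at 268 and 372 TPM on day 7, against 31.2 and 35.2 TPM on day 5 (3.21 ± 0.17, adjusted p = 4.83e-10). The 2 day 7 libraries differed in granulosa markers (495 and 2168 TPM in sum), and whether granulosa cells were present was not tested. From day 7 to day 14 all 6 rose, where 7.78% of all genes rose. Zp3 read 28161 and 25891 TPM on day 14, against 4249 and 5425 TPM on day 7 (2.49 ± 0.12, adjusted p = 1.52e-12), and Astl 2738 and 2589.8 TPM on day 14, against 253 and 303 TPM on day 7 (3.26 ± 0.12, adjusted p = 8.1e-14). On day 14 the members took 3.77 to 4.03% of the TPM total, the highest share of any group. Over all genes 903 rose and 3802 fell between these days, or 1656 and 2516 after rescaling.

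DIOLs were sampled from day 5 to day 25. From day 5 to day 10 all but Oosp3 rose, where 3.92% of all genes rose. Zp3 read 10502 and 10485 TPM on day 10, against 1728 and 1731 TPM on day 5 (2.60 ± 0.12, limma adjusted p = 2.05e-12), and Oosp1 303 and 264 TPM on day 10, against 26.7 and 40.6 TPM on day 5 (3.06 ± 0.17, adjusted p = 2.93e-11). Zp1, Oosp2 and Astl changed by 2.00 ± 0.12, 1.77 ± 0.19 and 1.71 ± 0.12, and Oosp3 by 0.37 ± 0.12 (adjusted p = 0.0138, not called). The 10 macrophage and blood markers summed to 60.2 to 63.3 TPM on day 10, against 631 to 654 TPM on day 5, the 6 stromal and endothelial markers to 6.37 to 12.8 TPM on day 10, against 353 to 354 TPM on day 5, and the granulosa markers to 5.21 to 7.36 TPM on day 10, against 20.1 to 22.6 TPM on day 5. C1qa and C1qc were at 0 in all of these libraries, and the labels name no gonadal somatic cells for these DIOLs. Whether other cells were present or had a part in the members' changes was not tested. Over all genes 455 rose and 2231 fell, or 633 and 1527 after rescaling.
From day 10 to day 15 limma called none of the 6, whose log2 changes were between 0.15 and 0.99 and of which 5 had an adjusted p under 0.05, while 3.64% of all genes were called (130 higher and 292 lower, or 162 and 230 after rescaling, when Astl passed at 1.07). From day 15 to day 25 only Oosp3 rose, where 4.38% of all genes rose. It read 106 and 98.4 TPM on day 25, against 24.5 and 24.8 TPM on day 15 (2.01 ± 0.12, adjusted p = 1.08e-09). Oosp1 read 792 and 816 TPM on day 25, against 424 and 405 TPM on day 15 (0.96 ± 0.17, adjusted p = 0.000278), short of a change of 1. Zp3 and Zp1 differed by -0.07 ± 0.12 and -0.04 ± 0.12 between these days. On day 5 DIOLs.S and DIOLs could be set side by side, and Oosp3 was lower in DIOLs.S (4.06 and 3.25 TPM, against 9.62 and 10.4 TPM in DIOLs; -1.25 ± 0.12, adjusted p = 1.33e-07), where 7.39% of all genes were lower. The macrophage and blood markers summed to 29.5 to 38.4 TPM in DIOLs.S of day 5, against 631 to 654 TPM in DIOLs of day 5, and the granulosa markers to 386 to 387 TPM in DIOLs.S, against 20.1 to 22.6 TPM in DIOLs, and their part was not tested.

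Set against incompetent GV oocytes, all 3 kinds of cultured oocytes had less Oosp1 and Oosp3. These comparisons share the GV libraries. Oosp3 read 106 and 98.4 TPM in DIOLs of day 25, 118 and 133 TPM in DIOLs.S of day 14 and 24.1 and 42.8 TPM in wild-type in vitro oocytes of day 13, against 810, 867 and 968 TPM in incompetent GV oocytes. The log2 differences were -3.09 ± 0.11 (limma adjusted p = 1.46e-14), -2.80 ± 0.11 (adjusted p = 3.46e-14) and -4.73 ± 0.42 (adjusted p = 5.13e-13). Oosp1 read 792 and 816 TPM in DIOLs of day 25, 974 and 990 TPM in DIOLs.S of day 14 and 645 and 694 TPM in wild type of day 13, against 2416, 2887 and 3460 TPM in incompetent GV oocytes, with differences of -1.84 ± 0.15 (adjusted p = 2.97e-09), -1.56 ± 0.15 (adjusted p = 2.38e-08) and -2.11 ± 0.41 (adjusted p = 2.47e-05). No library of the cultured groups overlapped the GV libraries for these genes, though the share of all genes without overlap was not counted. Of all genes, 13.5% were lower in DIOLs of day 25 and 15.2% in wild type of day 13, while 31.1% were called in either direction in DIOLs.S of day 14. For DIOLs.S of day 14, 1268 were higher and 2340 lower, or 1650 and 1885 after rescaling.
Zp1, Zp3, Oosp2 and Astl were not called in DIOLs of day 25, with differences of 0.23 ± 0.11, 0.63 ± 0.11, -0.87 ± 0.18 and -0.34 ± 0.11. The same 4 were not called in wild type of day 13, with differences of 0.00 ± 0.32, 0.67 ± 0.11, -1.24 ± 0.55 and -0.48 ± 0.23. Of these, Oosp2 passed after rescaling (-1.47, limma adjusted p = 0.0133) and without the Sohlh1 knockout libraries (-1.24, adjusted p = 0.00433). In DIOLs.S of day 14 Zp3 was higher (28161 and 25891 TPM, against 11364, 10937 and 8665 TPM in incompetent GV oocytes; 1.40 ± 0.11, adjusted p = 5.8e-10), and Zp1 (0.85 ± 0.11, adjusted p = 8.68e-07) passed only after rescaling, at 1.07.

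**Figure D5:**
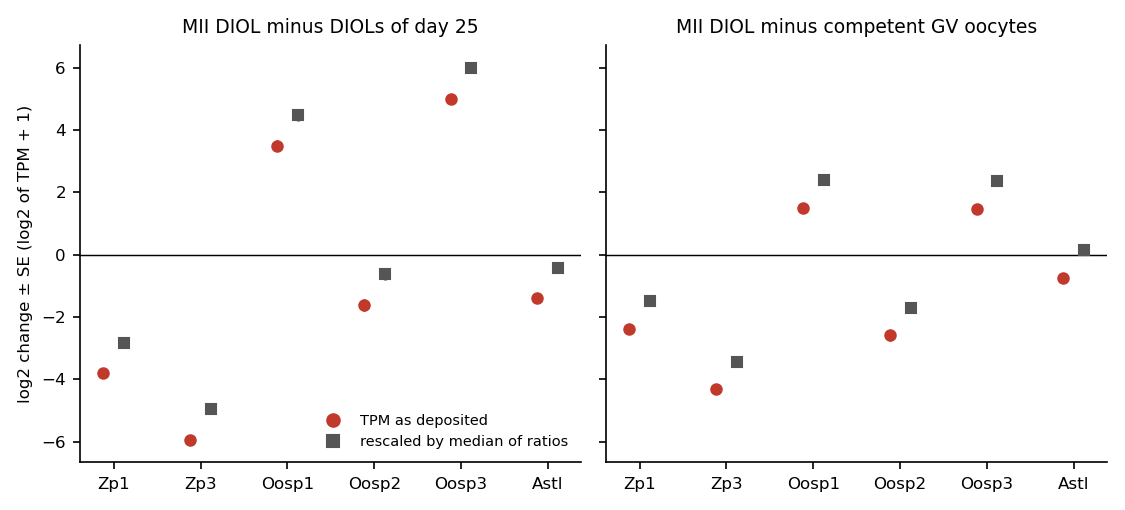
Log2 difference of each member between MII DIOLs and DIOLs of day 25 and between MII DIOLs and competent GV oocytes, as deposited (circles) and after rescaling by medians of ratios (squares), with SEs smaller than the symbols. Zp1 and Zp3 lie below 0 and Oosp1 and Oosp3 above it under both scalings.

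In MII DIOLs, cells matured to metaphase of the second meiotic division, the members moved in opposite directions. Zp1, Zp3, Oosp2 and Astl fell and Oosp1 and Oosp3 rose relative to DIOLs of day 25, in a comparison where 37.8% of all genes fell and 19.8% rose. Zp3 read 262 and 254 TPM in MII DIOLs, against 16048 and 15773 TPM in DIOLs of day 25 (-5.94 ± 0.12, limma adjusted p = 1.25e-19), and Zp1 403 and 299 TPM, against 4999 and 4694 TPM in DIOLs of day 25 (-3.80 ± 0.12, adjusted p = 7.13e-17). Oosp1 read 9198 and 9018 TPM in MII DIOLs, against 792 and 816 TPM in DIOLs of day 25 (3.50 ± 0.17, adjusted p = 7.3e-14). Oosp3 read 3367 and 3259.7 TPM in MII DIOLs, against 106 and 98.4 TPM in DIOLs of day 25 (5.01 ± 0.12, adjusted p = 1.31e-18). The neighbours Oosp1 and Oosp3 were thus the highest of any group in MII DIOLs, while Oosp2, next to them on the chromosome, read 212 and 201 TPM there, against 610.4 and 646 TPM in DIOLs of day 25 (-1.60 ± 0.19, adjusted p = 1.96e-07). Astl read 712 and 567 TPM in MII DIOLs, against 1697 and 1639.9 TPM in DIOLs of day 25 (-1.39 ± 0.12, adjusted p = 1.46e-09).
The scaling mattered here. Rescaling by medians of ratios shifted all genes by -0.83, turned 2298 higher and 4391 lower genes into 3557 and 3281, and left Zp1 at -2.82, Zp3 at -4.96, Oosp1 at 4.48 and Oosp3 at 5.99 past the test, but not Oosp2 at -0.62 or Astl at -0.41. Since poly(A) selection counts only polyadenylated transcripts, a change of tail length and a change of amount cannot be told apart.

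Against competent GV oocytes, MII DIOLs again had less Zp1 (403 and 299 TPM, against 1888, 1714 and 1812 TPM in competent GV oocytes; -2.37 ± 0.11, limma adjusted p = 3.84e-14) and less Zp3 (262 and 254 TPM, against 5443, 4919 and 5189 TPM in competent GV oocytes; -4.32 ± 0.11, adjusted p = 2.69e-18). Oosp1 (9198 and 9018 TPM, against 3209, 3186 and 3223 TPM in competent GV oocytes; 1.51 ± 0.15, adjusted p = 1.76e-08) and Oosp3 (3367 and 3259.7 TPM, against 1209, 1208 and 1175 TPM in competent GV oocytes; 1.47 ± 0.11, adjusted p = 1.08e-10) were higher. Oosp2 read 212 and 201 TPM in MII DIOLs, against 1258, 1217 and 1279 TPM in competent GV oocytes (-2.59 ± 0.18, adjusted p = 2.68e-11). The Oosp neighbours again went in different directions. Astl was not called (-0.74 ± 0.11, adjusted p = 4.57e-06), and its difference was 0.14 after rescaling, which turned 2119 higher and 3702 lower genes into 3711 and 2782. Here 18.3% of all genes were higher and 31.9% lower. The ratio of Oosp1 to Zp3 was 35.1 and 35.5 in MII DIOLs, 0.0493 and 0.0518 in DIOLs of day 25 and 0.590 to 0.648 in competent GV oocytes. The 4 cumulus markers summed to 36.5 to 69.2 TPM and the 10 granulosa markers to 348 to 802 TPM in MII DIOLs, against 0.27 to 0.65 and 5.34 to 9.51 TPM in DIOLs of day 25 and 2.22 to 2.94 and 49.9 to 139.9 TPM in competent GV oocytes, and their part was not tested. Has2 and Tnfaip6 were at 0 in DIOLs of day 25, as were Amhr2, Inha, Hsd3b1 and Gja1.

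Competent GV oocytes had less Zp1 than incompetent ones, and this was the only member called between them, where 7.42% of all genes were lower. Zp1 read 1888, 1714 and 1812 TPM in competent GV oocytes, against 4440, 4231 and 3739 TPM in incompetent ones (-1.19 ± 0.10, limma adjusted p = 4.92e-09). Zp3 read 5443, 4919 and 5189 TPM in competent GV oocytes, against 11364, 10937 and 8665 TPM in incompetent ones (-0.98 ± 0.10, adjusted p = 5.75e-08), and Astl 1130.1, 1006 and 1055 TPM, against 2224, 2180.2 and 1928 TPM in incompetent ones (-0.99 ± 0.10, adjusted p = 9.48e-08). The libraries of the 2 stages did not overlap for these 3 genes, and the share of all genes without overlap was not counted. Zp3 and Astl lay just short of a change of 1, which both passed without competent replicate 1 or without incompetent replicate 3. Oosp1 (0.15 ± 0.14), Oosp2 (0.12 ± 0.16) and Oosp3 (0.45 ± 0.10) were not called.

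Of other genes listed for the egg coat, the egg surface and their partners, 5 of 14 could be read (Itga6, Mgat1, B4galt1, Zpld1 and Fetub). Of genes listed for cortical granule release, 6 of 13 could be read (Snap23, Snap25, Vamp3, Nsf, Syt1 and Padi6). They are called egg surface and release genes below after their lists, which does not place each gene's product. Padi6 is also among the oocyte markers. Between wild type of day 13 and day 11, none of the 5 egg surface genes rose and 2 fell, while 3 of the 6 release genes rose and none fell, where 5.5% of all genes rose and 16.5% fell. The median log2 change of the release genes was 1.14, against -0.24 over all genes. Padi6, needed for the cytoplasmic lattices of the oocyte, averaged 28907 TPM on day 13 and 4191 TPM on day 11, and Nsf, the ATPase that recycles vesicle fusion complexes, averaged 399 TPM on day 13 and 127 TPM on day 11.
In each of the 4 day 11 knockouts, 1 of the 5 egg surface genes and 2 of the 6 release genes fell and none rose, where 9.26 to 11.5% of all genes fell and 12.4 to 18.6% rose. The gene from the egg surface list was Fetub, which encodes fetuin-B, the inhibitor of ovastacin, and those from the release list were Nsf and Padi6. Fetub averaged 3.47 TPM in the Figla, 7.21 TPM in the Lhx8, 3.21 TPM in the Stat3 and 12.9 TPM in the Sub1 knockout, against 159 TPM in wild type of day 11, with log2 changes of -5.19, -4.33, -5.26 and -3.57. On day 13 Fetub averaged 3.76 TPM in the Nobox, 18.7 TPM in the Dynll1 and 123 TPM in the Tbpl2 knockout, against 308 TPM in wild type (-6.02 ± 0.21, -4.00 ± 0.21 and -1.32 ± 0.21). Padi6 averaged 292 TPM in the Nobox, 856 TPM in the Sohlh1, 134 TPM in the Dynll1 and 6529.7 TPM in the Tbpl2 knockout, against 28907 TPM in wild type. In the Nobox knockout 2 egg surface genes rose, Itga6 (1.20 ± 0.13) and B4galt1 (2.69 ± 0.41), and 1 fell, and of the release genes Vamp3 rose (1.12 ± 0.10) and Nsf, Syt1 and Padi6 fell, where 30% of all genes rose and 8.5% fell. The median change of the release genes there was -1.17, against 0.52 over all genes, and that of the egg surface genes 0.10. Neither list had a call in the 9 knockouts where no member passed.
In MII DIOLs, relative to DIOLs of day 25, 3 egg surface genes rose and 1 fell, and 1 release gene rose and 3 fell, where 19.8% of all genes rose and 37.8% fell. Fetub averaged 73.9 TPM in MII DIOLs and 218 TPM in DIOLs of day 25 (-1.55 ± 0.07), Nsf 14.4 TPM in MII DIOLs and 903 TPM in DIOLs of day 25 (-5.88 ± 0.11), and Padi6 12.2 TPM in MII DIOLs and 27889 TPM in DIOLs of day 25 (-11.05 ± 0.13). Itga6, an integrin subunit of the egg surface, averaged 396 TPM in MII DIOLs and 61.9 TPM in DIOLs of day 25 (2.66 ± 0.24).

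Of 10 genes for transcription factors that act on egg coat genes or beside them, 7 could be read (Lhx8, Sohlh1, Sohlh2, Tbpl2, Taf4b, Tcf3 and Tcf4). Tbpl2 was listed at 0 in both libraries of the Figla, Lhx8 and Sohlh1 knockouts and read 2.53 to 4.46 TPM in the Nobox and 0.26 to 2.70 TPM in the Dynll1 knockout, against 64.1 to 67.0 TPM in wild type of day 11 and 210.2 to 212 TPM in wild type of day 13. It read 0.11 to 1.18 TPM in the Stat3 and 1.33 to 14.9 TPM in the Sub1 knockout, and 59.8 to 70.6 TPM in its own knockout. Lhx8 read 22.7 to 32.2 TPM in the Figla, 43.7 to 47.8 TPM in its own, 27.4 to 32.1 TPM in the Stat3 and 127 to 132 TPM in the Sub1 knockout, against 287 to 374 TPM in wild type of day 11, and 36.2 to 41.9 TPM in the Nobox, 0 TPM in the Sohlh1, 34.0 to 39.3 TPM in the Dynll1 and 193 to 196 TPM in the Tbpl2 knockout, against 455 to 464 TPM in wild type of day 13. Sohlh1 read 10.7 to 27.3 TPM in the Figla, 356 to 357 TPM in the Lhx8, 148 to 176 TPM in the Stat3 and 333 to 351 TPM in the Sub1 knockout, against 1125 to 1218 TPM in wild type of day 11, and 772 to 818 TPM in the Nobox, 383 to 389.7 TPM in the Dynll1 and 552 to 584 TPM in the Tbpl2 knockout, against 908 to 911 TPM in wild type of day 13. Tcf3, which encodes an E protein that pairs with FIGLA, read 197 to 232 TPM in the Figla knockout, against 207 to 211 TPM in wild type of day 11. It read 140 to 142 TPM in the Lhx8, 203 to 210 TPM in the Stat3 and 198 to 210 TPM in the Sub1 knockout. On day 13 Tcf3 read 357 to 373 TPM in the Nobox and 271 to 297 TPM in the Dynll1 knockout, against 177 to 182 TPM in wild type. It read 146 to 170 TPM in the Sohlh1 and 142 to 154 TPM in the Tbpl2 knockout. Sohlh2, Taf4b and Tcf4 were present in all 8 knockouts just named, with group means from 80.7 to 238 TPM for Sohlh2, from 48.05 to 131 TPM for Taf4b and from 22.6 to 42.6 TPM for Tcf4. Wild-type means of days 11 and 13 were 86.4 and 39.5 TPM for Sohlh2, 36.6 and 28.9 TPM for Taf4b, and 35.8 and 23.3 TPM for Tcf4. In all 8 knockouts the Sohlh2 and Taf4b means were above wild type of the same day, while those of Tcf4 lay on both sides.

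Likeness of pattern was measured by Pearson's r between group means of log2(TPM + 1) over the 33 groups, among 9290 genes and as a description with no test, since groups share control lines, culture and processing. Zp1 was most like Skap1 (r = 0.980), Nlrp4f (0.961), Fam217a (0.954), G3bp2 (0.950) and Zp3 (0.949). Zp3 was most like C87198 (0.957), Cpb2 (0.955), Map3k6 (0.953), Zp1 (0.949) and Fam151a (0.948). Astl was most like Miox (0.977), Oosp2 (0.973), Slc6a7 (0.957), Dnah9 (0.956) and Rspo2 (0.955), and Oosp2 most like Miox (0.977), Astl (0.973), Gucy2e (0.968), Rspo2 (0.964) and Slc6a7 (0.959). The nearest genes of Astl and Oosp2 thus overlapped in Miox, Rspo2 and Slc6a7, though the 2 genes lie on different chromosomes. Oosp1 was most like Zfp957 (0.967), Tcl1b1 (0.964), Zar1 (0.964), Mos (0.960) and Rspo2 (0.956), and Oosp3 most like Gpr149 (0.978), C87499 (0.967), Klhl8 (0.964), Slc45a3 (0.964) and Ermp1 (0.956). Among pairs of members r was lowest for Zp3 with Oosp3 (0.615) and highest for Oosp2 with Astl (0.973).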

How the data were processed

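Gene expression was read from a single table of TPM (transcript abundances scaled for length and library total) that the authors deposited for the series. Per the submitters' processing notes, STAR 2.6.0, featureCounts 1.6.0 and the mm10 build were used. How the authors turned reads into TPM is not given in the sources used here, and read totals are unknown. Columns were tied to samples by title, and 68 of 71 samples had a matching column. The other 3 are not analysed here, and 80 columns that match no sample were not used. Of 15163 rows, 1 was incomplete and 22 had gene names turned into dates, which left 15140 genes, of which 14555 matched GENCODE M21 by symbol. Rows of the member genes were found by symbol, and the members and lists were chosen with earlier results of these data known.

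From the deposited TPM, log2(TPM + 1) was fitted with limma 3.58.1 in R 4.3.3 (trend and robust variances), with 1 fit over the 42 in vitro libraries (12306 genes tested), 1 over the 26 DIOL and GV libraries (11603 genes) and, for wild type of day 13 against incompetent GV oocytes, 1 over all 68 (12689 genes). Genes entered with at least 1 TPM in at least 2 libraries of a fit, and all 6 members did in each. Benjamini-Hochberg adjusted p-values run over all genes tested, a call needed an adjusted p under 0.05 and a log2 change of at least 1, and 42 comparisons were made. Errors of a log2 change are limma's SE, and with 2 libraries a group the spread is shared over all groups of a fit. TPM were also rescaled by medians of ratios over genes above 0 in all libraries of a fit.

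The rule for the genes named took all 6 members in every comparison, every listed regulator by level, at most 4 called genes of each other list in a comparison, and for each member the 5 genes with the highest r among genes with a group mean of at least 10 TPM, leaving out Gm and Rik names. Tables and figures were made with Python 3.11.15, pandas 2.3.3, numpy 2.4.6 and matplotlib 3.10.9, and the fit was tested on simulated data. Promoter windows came from RefSeq tables on GRCm38.p6. The alternatives were a pseudocount of 0.1, no filter, a replicate block, the rescaling, 1 fit over all libraries, fits without the Sohlh1 knockout libraries, and each library left out in turn.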

Additional observations from a re-analysis of the deposited data

How the results depend on the processing

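Without leaving out a library, 1370 of 1416 member changes kept their direction and their side of the test, 9 lost their call, 27 gained one and 10 changed sign. The count of members called moved by over 1.5 times in 9 of 236 cases. In the Ybx3 knockout it was 0 with a pseudocount of 0.1, 4 after rescaling, 2 with 1 fit over all libraries and 2 without the Sohlh1 knockout libraries, against 1. In the libraries labelled Ccnk knockout it was 0 with a pseudocount of 0.1, 2 after rescaling and 2 without the Sohlh1 knockout libraries, against 1. After rescaling it was 1 between DIOLs of days 15 and 10, against 0, and 2 between days 25 and 15, against 1. Oosp2 in DIOLs.S of day 7 against day 5 lost its call with 1 fit over all libraries (adjusted p = 0.0634, limma). The Figla knockout differed from the Sub1 knockout in Oosp1 with a pseudocount of 0.1 (-3.43, adjusted p = 0.0176) and in Oosp2 without the Sohlh1 knockout libraries (-1.33, adjusted p = 0.0311), neither called as deposited. The cause of these moves was not tested. With single libraries left out, the counts ran from 0 to 1 for the Ybx3 knockout, the libraries labelled Ccnk knockout, DIOLs of day 15 against day 10 and the Tbpl2 knockout against wild type of day 11, from 1 to 3 for the Figla against the Stat3 knockout and for competent against incompetent GV oocytes, and from 3 to 5 for the Sohlh1 against the Nobox knockout. Where a group was left with 1 library, it was assumed to vary like the others.

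Every change of sign concerned a difference that was not called as deposited. After rescaling these were Astl in the Foxr1 (-0.027) and Sfr1 (-0.086) knockouts and in MII DIOLs against competent GV oocytes (0.145), Oosp2 in the Hes6 knockout (0.044), Oosp3 in the Foxr1 (-0.084) and Kdm1b (-0.071) knockouts, and Zp1 in the Sfr1 knockout (-0.117), in DIOLs of day 25 against day 15 (0.009) and in wild type of day 13 against incompetent GV oocytes (-0.230). Samples share replicate numbers, but no label says that a number marks a shared culture, and the deviations of same-numbered samples correlated at r of -0.1793 to 0.0812 over comparisons with 2 shared numbers. A replicate block changed no call of a member, and Zp1 in wild type of day 13 against incompetent GV oocytes was -0.033 with the block. With single libraries left out, Astl ran from -0.244 to 0.113 in the Tbpl2 knockout against wild type of day 11 and from -0.026 to 0.013 in the Tcf25 knockout. Oosp1 ran from -0.286 to 0.303 in DIOLs.S against DIOLs of day 5, from -0.774 to 0.319 in the Dynll1 and from -2.00 to 1.45 in the Sohlh1 against the Nobox knockout. Oosp2 ran from -0.102 to 1.862 in the Dynll1 and from -0.982 to 2.985 in the Sohlh1 against the Nobox knockout, from -0.197 to 0.062 in the Hes6 knockout and from -1.09 to 0.96 in the Tbpl2 knockout against wild type of day 11. Oosp3 ran from -0.363 to 0.44 in the Ell3, -0.37 to 0.434 in the Foxr1, -0.353 to 0.451 in the Kdm1b, -0.119 to 0.685 in the Mef2b and -0.694 to 0.11 in the Tcf25 knockout, and from -0.754 to 1.864 in the Tbpl2 knockout against wild type of day 11. Zp1 ran from -0.087 to 0.004 in DIOLs of day 25 against day 15, from -0.003 to 0.033 in the Sfr1 knockout and from -0.07 to 0.054 in wild type of day 13 against incompetent GV oocytes. Low TPM limit what can be said of Oosp3 on day 11 and of the Oosp genes in the knockouts where they were near 0.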
